A study of Gorilla gorilla gorilla with 14 samples.

Results

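Open chromatin regions that were called in the sorted neurons of gorilla cerebral organoids, and in none of the other 3 sorted cell types, are described here. They are the intervals of the deposited consensus peak set for neurons (N) that share no base with the peak sets for basal intermediate progenitors (bIP), or for the apical (aRG) or basal (bRG) kind of radial glia. Of 73136 distinct N peaks, 21231 (29%) met this rule, and 51905 touched a peak of at least 1 other cell type. For counts, the peaks were linked by at least 1 shared base to the regions of the deposited count table: 20521 of the peaks touched 20437 regions of 204249, and these are called the N-only regions. The other 710 N-only peaks touched no region of the table, and 645 of them lie on chromosome X.

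The data are bulk ATAC-seq counts from 14 libraries, all from organoids grown for 8 weeks from 1 gorilla induced pluripotent stem cell line, GC1, with no genetic change or treatment named in the labels. Cells were separated by fluorescence-activated sorting into aRG (n = 3), bRG (n = 2), bIP (n = 5) and N (n = 4), and the labels give the N cells as BCL11B+ neurons. Library numbers in the labels form 2 consecutive runs, called the first and second series here: the first holds replicates 1 and 2 of aRG and of N and bIP replicates 1 to 3, and all others, both bRG libraries included, are of the second. Separate cultures behind the libraries of a group are not stated, so a p-value sets a difference only against the spread of these libraries, which may be technical. In bulk samples fewer cells with an open region and less opening per cell cannot be told apart.

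ATAC-seq uses a transposase to cut DNA where it is not packed tightly into nucleosomes, which marks promoters and distal elements such as enhancers. In the developing cortex, radial glia are the dividing neural stem cells, intermediate progenitors are the basal cells that divide to give neurons, and neurons have left the cell cycle and build axons and synapses. BCL11B, also called CTIP2, is a transcription factor of deep-layer neurons that project below the cortex. Promoters tend to be open in many cell types, and distal elements differ more between them.

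Totals ran from 12834983 counts (bIP replicate 3) to 26660427 (aRG replicate 1). Levels are CPM, the counts of a region as a share of the library's total, scaled by the TMM factors of edgeR, and they are not divided by region width. At marker promoters, SOX2, a stem cell transcription factor, had a mean of 9.60 ± 1.56 CPM (SD, n = 4) in N against 59.3 ± 1.59 CPM (SD, n = 3) in aRG, and EOMES, the defining factor of intermediate progenitors, had 36.5 ± 4.48 CPM (SD, n = 4) in N against 83.0 ± 19.8 CPM (SD, n = 5) in bIP. All 7 radial glia markers and all 6 intermediate progenitor markers measured were lower in N than in bIP by edgeR, while of 8 neuron markers 2 were higher and 1 was lower. The summed radial glia markers were 104 to 132 CPM in N, 155 to 244 in bIP and 372 to 426 in aRG. Markers of other cells were measured in every group: their sums in N were 55.2 to 77.5 CPM for 5 GABAergic, 19.6 to 24.6 for 4 mesenchyme, 3.89 to 5.78 for 2 choroid plexus, 18.1 to 25.1 for 4 oligodendrocyte and astrocyte and 1.64 to 3.33 for 2 pluripotency promoters. What part these cells have in the results was not tested. The promoter of BCL11B itself, at 21.8, 23.2, 14.7 and 21.6 CPM in the N libraries, was also open in bIP (24.1, 24.3, 18.7, 23.9 and 27.1 CPM) and aRG (20.9, 22.4 and 15.7 CPM), and none of the 8 neuron marker promoters measured was N-only.

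The N-only peaks were narrower and weaker than the N peaks shared with other cell types. Their median width was 680 bp against 913 bp, the authors' fold enrichment at the summit had a median of 8.75 against 10.4, and the authors' −log10 q had a median of 153 against 275. A single summit was listed for 62.5% of N-only peaks and for 36.7% of shared ones, and 31.6% of N-only peaks reached the median −log10 q of all N peaks. The rule is a yes-or-no overlap, so its edge was looked at directly. The 105 N-only peaks that lay within 100 bp of a peak of another cell type had a median −log10 q of 138 and a fold of 6.71, and the 31 N peaks that shared 1 to 100 bp with one had 166 and 8.09. Most N-only peaks lay far from that edge, with a median gap of 7540 bp to the nearest peak of another cell type. The peak sets hold no interval on chromosomes 2A and 2B, where the table has 17364 regions, so genes there could not contribute.

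Few N-only regions were at promoters. Of the 20014 with a listed closest gene, 898 lay within 1000 bp of it, which is 4.49% (Wilson 95% interval 4.21 to 4.78, counting error only). The share was 25.9% among regions of shared N peaks and 10.3% among all regions of the table. Of the 898, 194 were listed for a protein-coding gene. The median distance to the closest gene was 25318 bp, against 11465 bp for regions of shared N peaks, and 29.5% of N-only regions against 17.8% of shared ones lay over 50 kb away. Along the genome, N-only peaks made up 35.8% of the N peaks on chromosome 13 and 34.9% on chromosome 4, but 13.4% on chromosome 19. The closest gene is the authors' listing by distance and need not be the gene a region acts on.

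The median level at N-only regions was highest in the N libraries, and bIP came next. The median CPM over the 20437 regions was 4.17, 3.60, 3.27 and 5.21 in the 4 N libraries. It was 1.14, 1.17, 1.32, 0.972 and 0.966 in the 5 bIP libraries, 0.711, 0.686 and 0.834 in aRG, and 0.708 and 0.750 in bRG. No library of one group reached the range of another among N, bIP and the 2 kinds of radial glia, whereas aRG and bRG overlapped. The N-only regions took 9.44 to 12.7% of all counts in N, 2.60 to 3.86% in bIP, 1.80 to 2.24% in aRG and 2.05 to 2.20% in bRG. At regions of shared N peaks the medians were instead 6.77 to 9.15 CPM in N, 7.28 to 9.42 in bIP and 5.53 to 5.98 in aRG, with N and bIP overlapping. The gap between N and the rest at N-only regions follows from how they were chosen and was not tested.

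**Figure D1:**
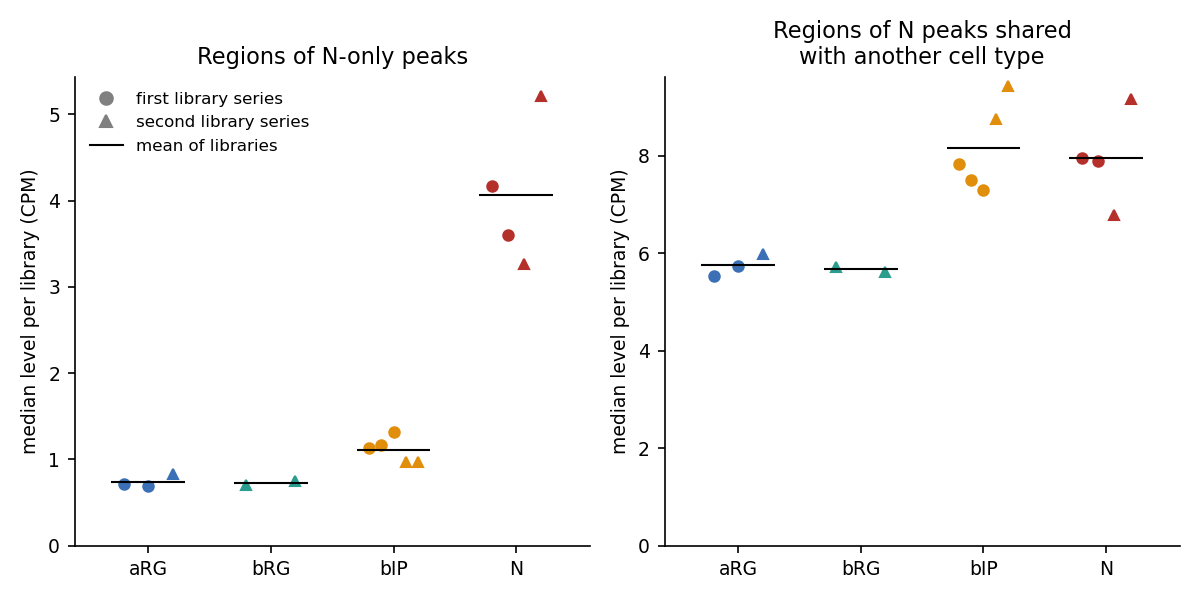
Median CPM per library (vertical axis) at N-only regions and at regions of shared N peaks, with 1 point per library and the libraries grouped by cell type. At N-only regions the N libraries sit between 3.27 and 5.21 CPM and the bIP libraries between 0.966 and 1.32, above the radial glia libraries.

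An N-only peak did not mean a region closed elsewhere. N had the highest group mean at 95.7% of the regions, and at 15297 (74.8%) every N library was above every other library. The next highest mean was that of bIP at 68.8%, of bRG at 16.1% and of aRG at 15.1%. The median ratio of the N mean to the next highest was 3.47, and at 4706 regions (23.0%) it was under 2. At 727 regions the bIP mean exceeded the N mean. In bIP, 13.9% of N-only regions reached the 10th percentile of the levels at regions with a bIP peak of their own, and the matching shares were 5.79% in aRG and 4.73% in bRG. As a description of the contrasts the rule used, edgeR called 18139 of the 20437 regions higher and 154 lower in N than in bIP (of all 200931 tested regions 55.2% were called, 28.8% higher and 26.4% lower). The counts were 19544 and 60 against aRG (66.4% of all called, 37.1% higher and 29.2% lower), and 18541 and 51 against bRG (58.1% called, 32.2% higher and 25.8% lower).

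The 12 named promoters were those of N-only regions with the smallest p for N against bIP. TENM2 encodes a teneurin, an adhesion receptor of synapses. Its promoter region (chr5:146740098-146741566 in gorGor6, 15 bp from the gene) had 1.15, 1.06 and 1.18 CPM in aRG, 0.758 and 0.750 in bRG, 1.82, 2.14, 2.08, 1.68 and 1.84 in bIP and 11.4, 10.7, 9.99 and 13.7 in N. Every N library was above every library of another group, and the bIP libraries lay above those of radial glia, at 0.74 (SE 0.24, adjusted p = 0.0114) on the log2 scale for bIP against aRG and 1.32 (SE 0.31, adjusted p = 0.00127) against bRG by edgeR. The aRG difference was 0.58 in the second series alone, which has 1 aRG library, and its call was lost without aRG replicate 2 (0.55, adjusted p = 0.117). The bRG call was lost with a replicate block, a term for replicate number in the model (0.94, adjusted p = 0.482 by edgeR).

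GABBR2 encodes a subunit of the GABA-B receptor, which slows neuronal firing. Its N-only promoter region (chr9:69708219-69709302) had 0.790, 1.19 and 1.42 CPM in aRG, 0.961 and 0.750 in bRG, 0.870, 0.712, 1.18, 0.928 and 1.93 in bIP and 8.97, 12, 8.45 and 15.2 in N. The 3 progenitor groups overlapped fully, with -0.03 (SE 0.31, adjusted p = 0.958) for bIP against aRG, and N stood alone. SLC6A17, which encodes a transporter of neutral amino acids into synaptic vesicles, had 1.58, 1.06 and 3.09 CPM in aRG, 1.52 and 1.03 in bRG, 2.53, 2.72, 2.91, 2.12 and 3.19 in bIP and 14.7, 18.9, 17.3 and 28.9 in N at its promoter (chr1:105046127-105047703). Here bIP exceeded bRG by 1.33 (SE 0.35, adjusted p = 0.00388), a call lost without bRG replicate 2 (adjusted p = 0.0889), while aRG replicate 3 lay within the bIP range.

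Other N-only promoters had the same shape. PTPN5, a phosphatase enriched in brain, reached 20.5 ± 5.19 CPM (SD, n = 4) in N against 2.32 ± 0.695 CPM (SD, n = 5) in bIP (chr11:8128577-8130409). THY1, a surface glycoprotein of mature neurons, reached 5.87 ± 1.91 CPM (SD, n = 4) against 0.672 ± 0.113 CPM (SD, n = 5) (chr11:102587914-102588245). RASGRF1, a Ras activator that responds to calcium, reached 5.34 ± 1.66 CPM (SD, n = 4) against 0.593 ± 0.141 CPM (SD, n = 5) (chr15:54441390-54442094). In these 3 no difference between bIP and aRG was called by edgeR, with adjusted p of 0.845, 0.485 and 0.996. INSYN2A, named for its role at inhibitory synapses, was less sharply divided, with 20.1, 20.7, 20.6 and 33.2 CPM in N and 5.30, 5.57, 5.62, 5.97 and 6.71 in bIP. TMEM271, NKX1-1, OTOR, TNFSF4 and FOXQ1 completed the 12 promoters, and their N means ran from 9.34 CPM at TNFSF4 to 24.9 at TMEM271. Of these 5, TNFSF4, a ligand of the tumour necrosis factor family, was higher in bIP than in aRG, by 0.79 (SE 0.26, adjusted p = 0.0137), a call lost without aRG replicate 3 (0.55, adjusted p = 0.15) and in each series alone (0.62 in the first and 1.20 in the second).

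Distal regions, of which 12 were picked by the same rule, were listed for genes of several kinds. A region 10698 bp from FANCA, a DNA repair gene (chr16:73966455-73967535), had 0.672, 0.561 and 0.392 CPM in aRG, 0.152 and 0.515 in bRG, 0.719, 0.906, 0.624, 0.530 and 0.290 in bIP and 13.3, 14.1, 7.64 and 14 in N. The N libraries were all above 7 CPM and no other library reached 1, which was a step of 4.39 on the log2 scale from bIP to N. NEO1 encodes neogenin, a receptor of axon guidance, and a region 7324 bp from it (chr15:48097780-48098754) had 11.5, 10.7, 10.6 and 16.7 CPM in N and 0.832, 1.29, 0.833, 1.46 and 1.06 in bIP. LIN7A, a scaffold protein of synapses, had a region 55882 bp away (chr12:76910030-76911299) with 14.2, 13.7, 14.9 and 22.9 CPM in N and 1.78, 1.75, 1.73, 1.90 and 1.55 in bIP. At both loci N replicate 4 was the highest library and the bIP libraries stayed under 2 CPM. SLC24A4, which encodes an exchanger of sodium, potassium and calcium, and PHACTR1, a regulator of actin and of a protein phosphatase, had N means of 23.9 and 10.9 CPM at distal regions, against bIP means of 1.77 and 0.879. The other 7 were listed for ADAM28, TMEM192, MFAP3, UBXN2B, CDKN3, CMTR2 and SOWAHB, with N means from 10.5 CPM at CDKN3 to 24.7 at SOWAHB. At CMTR2, which encodes a cap methyltransferase of mRNA, bIP was already higher than aRG by 1.25 (SE 0.31, adjusted p = 0.00176) and than bRG by 2.49 (SE 0.44, adjusted p = 6.06e-05). The second of these kept its call in the second series alone but lost it with the replicate block (2.34, adjusted p = 0.103 by edgeR). The first was 0.68 in the second series alone, which has 1 aRG library.

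Gene lists for neuronal functions were compared by the share of their regions that was N-only, leaving out the regions on chromosomes 2A and 2B, which could not be N-only. The background was 10.9% of all such regions with a closest gene and 9.06% of those of protein-coding genes. The share was 13.1% for cadherins and nonclustered protocadherins (22 of 168 regions), 12.9% for synaptic vesicle and release genes (17 of 132), 12.4% for microtubule and growth cone genes (19 of 153), 11.1% for glutamate and GABA receptors (36 of 325) and 10.8% for neuronal RNA-binding proteins (10 of 93). Voltage-gated ion channels (10.3%, 25 of 243), synaptic adhesion (10.0%, 30 of 299), axon guidance (9.84%, 37 of 376) and deep-layer and pan-cortical neuron transcription factors (9.30%, 24 of 258) lay between the 2 background values. Calcium handling and Ras activation (7.63%, 10 of 131) and upper-layer transcription factors (7.04%, 5 of 71) were below both. With 2A and 2B included the order changed: ion channels had 8.47%, deep-layer factors 8.33% and microtubule genes 10.3%, beside 8.36% for protein-coding genes. By gene, 72% of the receptor genes and 73.3% of the cadherins in the table had at least 1 N-only region. Among protein-coding genes 2992 of 11986 did, and genes with more regions have more chances to hold one. The share by gene was not particular to neuronal lists, since it was 52.4% for radial glia genes (11 of 21). That lay above synaptic vesicle (44.4%), calcium (46.7%), RNA-binding (50%) and upper-layer (37.5%) genes, and below the other neuronal lists. By region, the lists of other cells were not empty. Radial glia genes had 7.03% (13 of 185), cell cycle genes 8.70% (4 of 46) and intermediate progenitor genes 5.88% (6 of 102). GABAergic genes had 2.94% (2 of 68) and choroid plexus and hem genes 7.14% (5 of 70). Mesenchyme genes (56 regions), oligodendrocyte and astrocyte genes (31) and housekeeping genes (10) had 0. Both N-only regions of the GABAergic list and all 5 of the choroid plexus list were distal.

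**Figure D2:**
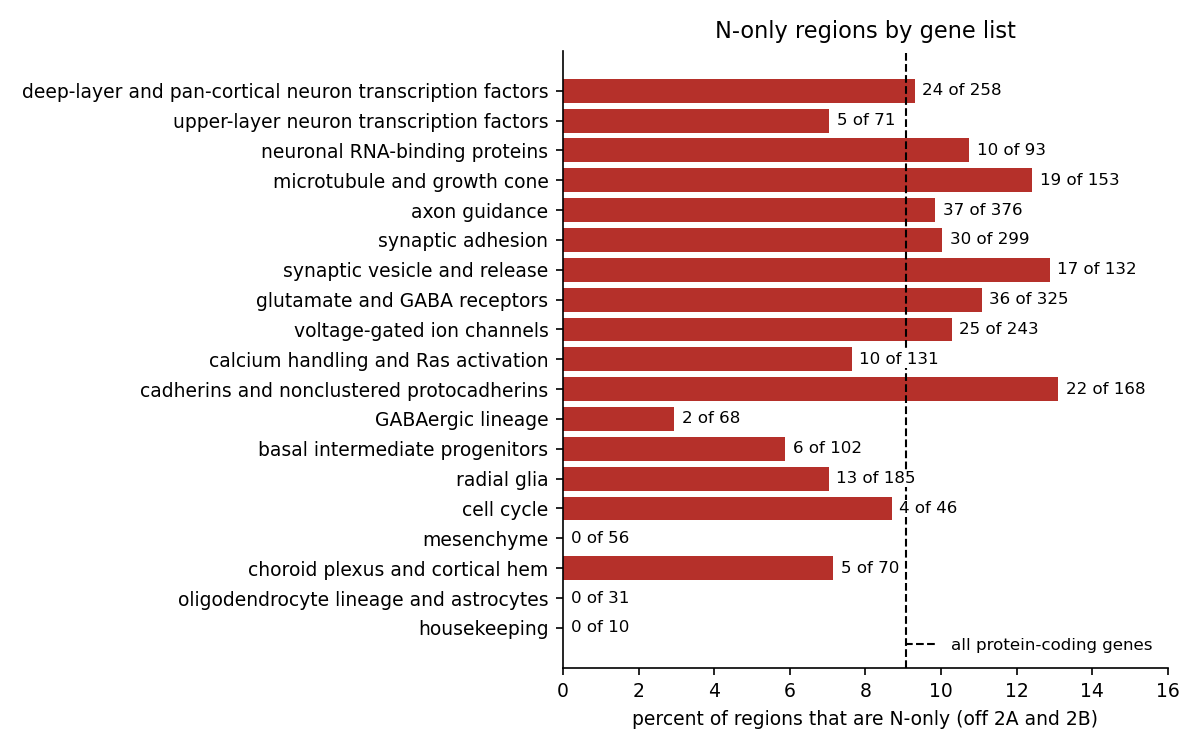
Percent of each gene list's table regions off chromosomes 2A and 2B that are N-only (horizontal axis), with the counts beside each bar and the dashed line at the 9.06% of all protein-coding genes. Cadherins and synaptic vesicle genes reach the highest shares, 13.1% and 12.9%, and 3 lists have none.

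Among transcription factors, FEZF2, which specifies neurons that project below the cortex, had 5 N-only regions of 39. The one with the smallest p for N against bIP (chr3:62337505-62338643, 87719 bp away) had 1.30, 1.56 and 1.81 CPM in aRG, 1.77 and 1.26 in bRG, 1.44, 0.971, 1.94, 1.86 and 0.966 in bIP and 9.20, 10.4, 11.9 and 19.3 in N. The progenitor libraries overlapped and stayed under 2 CPM while each N library was above 9. NEUROD6, a neuronal basic helix-loop-helix factor, had a different order: at a region 2077 bp from it (chr7:31970414-31971043) the libraries had 0.830, 0.312 and 1.52 CPM in aRG, 0.607 and 1.03 in bRG, 3.75, 3.62, 4.30, 2.87 and 3.04 in bIP and 9.28, 5.37, 6.39 and 12.2 in N. Its bIP libraries lay between radial glia and N without overlap, at 1.95 (SE 0.35, adjusted p = 4.64e-05) against aRG and 2.20 (SE 0.44, adjusted p = 0.000282) against bRG by edgeR; in the second series alone the aRG difference was 0.96 and not called (adjusted p = 0.162). The bRG call at this region was lost with the replicate block (1.71, adjusted p = 0.353 by edgeR). NEUROD6's own promoter, open in all 4 peak sets, had 25.4 CPM in bIP and 28.9 in N.

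CUX1, a homeodomain factor of upper-layer neurons, also showed such a step, with 2.88, 2.27, 1.94, 1.33 and 1.06 CPM in bIP, 4.13, 4.01, 3.17 and 4.50 in N and at most 0.539 in any radial glia library (chr7:70415343-70416046). The bIP value was 2.33 (SE 0.38, adjusted p = 1.48e-05) above aRG, though not called in the second series alone (1.14, adjusted p = 0.166). At FOXP2, a forkhead factor of deep layers, the direction was the other way: aRG had 1.07, 0.873 and 0.784 CPM, bIP 0.378, 0.971, 0.555, 0.177 and 0.242 and N 2.57, 2.51, 2.88 and 5.68 (chr7:106159979-106160655). bIP was lower than aRG there by edgeR, at -1.06 (SE 0.43, adjusted p = 0.0476), a call lost on leaving out any 1 of 9 libraries, with adjusted p from 0.0505 to 0.179. MEF2C, a factor of neuronal maturation, had a region 273375 bp away with 4.20 CPM in N and 0.661 in bIP. RBFOX3, the splicing regulator known as the NeuN antigen, had 4 N-only regions of 38, and the named one (chr5:3686021-3686660) had 2.92, 3.26, 5.96 and 11.8 CPM in N, with the second-series libraries the higher pair.

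Axon guidance and growth cone genes held both patterns. ROBO1 and ROBO2 encode receptors of the Slit repellents. The ROBO1 region (chr3:78907460-78908225) had 0.988, 0.624 and 0.834 CPM in aRG, 0.708 and 0.562 in bRG, 2.04, 2.85, 2.29, 2.48 and 2.17 in bIP and 5.69, 3.53, 6.15 and 8.12 in N. All bIP libraries were above all radial glia libraries, with 1.48 (SE 0.29, adjusted p = 0.00013) for bIP against aRG, while at ROBO2 (chr3:76799783-76800566) bIP had 1.10, 0.841, 1.25, 0.751 and 0.628 CPM, within the radial glia range, and N 9.47, 7.81, 5.04 and 6.99. DCLK1, a microtubule-associated kinase, resembled ROBO1 with 4.54, 3.50, 4.37, 3.71 and 3.38 CPM in bIP, 13.4, 10.2, 9.51 and 18.8 in N and 1.35 (SE 0.26, adjusted p = 0.000101) for bIP against aRG, which was not called in the second series alone (1.00, adjusted p = 0.118). At their named regions EFNA5, an ephrin ligand, and SEMA3A, a secreted repellent, resembled ROBO2: their bIP means were 0.753 and 0.767 CPM, against 0.810 and 0.692 in aRG and 6.58 and 3.98 in N. The SEMA3A region was picked by its p for N against bIP. Of the 10 N-only regions of SEMA3A, 6 were higher and 0 lower in bIP than in aRG by edgeR, with a median log2 difference of 1.01. Among all tested regions 24.0% were higher and 20.9% lower. CRMP1 and MAP1B, which bind the cytoskeleton of axons, had N means of 4.54 and 2.84 CPM and bIP means of 0.575 and 0.250.

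At synaptic genes, CNTNAP2, a neurexin-family adhesion protein, had 0.790, 0.561 and 1.27 CPM in aRG, 2.27, 2.52, 2.01, 1.06 and 1.06 in bIP and 4.29, 3.26, 3.94 and 4.79 in N (chr7:138273331-138274678). The first-series bIP libraries were the higher ones, and the pooled difference of 0.98 (SE 0.34, adjusted p = 0.0191) for bIP against aRG turned to -0.26 in the second series alone (adjusted p = 0.784). SYT4, a vesicle protein of the synaptotagmin family, had an N-only region 619 bp from its start (chr18:36660943-36661548) with 0.395, 0.125 and 0.539 CPM in aRG, 0.303 and 0.281 in bRG, 1.21, 1.17, 1.73, 1.41 and 1.35 in bIP and 5.77, 3.80, 5.38 and 6.38 in N. The groups N, bIP and radial glia did not overlap, and bIP was above aRG by 1.87 (SE 0.35, adjusted p = 7.4e-05) and above bRG by 2.35 (SE 0.44, adjusted p = 0.000139); the aRG difference was not called in the second series alone (1.35, adjusted p = 0.0737). SYT4 lost its bRG call with the replicate block (1.68, adjusted p = 0.284 by edgeR). CPLX2, a complexin that clamps vesicle fusion, had 5.07 CPM in N and 0.795 in bIP, and SYN3, a synapsin, 8.23 and 2.05. GABRB1, a subunit of the GABA-A receptor, had 9.61 CPM in N against 1.88 in bIP, with no call between bIP and aRG by edgeR (adjusted p = 0.8).

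Ion channel and calcium genes held both sharp and gradual steps. CACNA1A encodes the pore of the P/Q-type calcium channel, which triggers transmitter release. A region 41443 bp from it (chr19:9040774-9041603) had 0.277, 0.312 and 0.441 CPM in aRG, 0.455 and 0.187 in bRG, 0.303, 0.259, 0.624, 0.265 and 0.290 in bIP and 6.70, 5.16, 5.52 and 13.6 in N. No library outside N reached 1 CPM, and N was 4.45 above bIP on the log2 scale. RYR3, a calcium release channel, had 14.3, 9.85, 8.17 and 16.6 CPM in N and 1.21, 1.49, 1.39, 0.840 and 0.725 in bIP. CAMK4, a kinase switched on by calcium and calmodulin, had 0.909, 0.749 and 1.42 CPM in aRG, 1.72 and 1.55 in bRG, 3.41, 2.59, 2.98, 5.92 and 6.57 in bIP and 12.7, 12.2, 8.65 and 12.6 in N at chr5:90692887-90693776. Its bIP libraries lay between radial glia and N, the second-series pair above the first-series libraries. By edgeR they were 2.00 (SE 0.29, adjusted p = 3.26e-06) above aRG and 1.63 (SE 0.33, adjusted p = 0.00032) above bRG. The bRG call was lost with the replicate block (1.25, adjusted p = 0.388 by edgeR). ITPR1, a receptor for IP3 that releases stored calcium, was lowest in bIP: aRG had 2.06, 2.68 and 2.01 CPM, bIP 1.36, 0.971, 0.833, 0.575 and 1.01 and N 2.07, 2.51, 2.16 and 2.63. The bIP level was -1.20 (SE 0.27, adjusted p = 0.00071) relative to aRG.

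Cadherins hold cells of like kind together. CDH9 had 13.6, 6.73, 12.6 and 23.3 CPM in N and 1.48, 0.841, 2.36, 0.972 and 1.11 in bIP (chr17:63613413-63614768), and CDH8 had 6.24, 6.45, 3.80 and 9.71 and 0.832, 0.583, 0.694, 0.265 and 0.435. No difference between bIP and aRG was called by edgeR at either (adjusted p = 0.301 and 0.857). Genes known from progenitors also held N-only regions. PPP1R17, a marker of intermediate progenitors, had a region 4418 bp away (chr7:32307961-32308648) with 1.82, 1.10, 1.32, 2.43 and 2.42 CPM in bIP and 11.4, 8.76, 5.81 and 13.1 in N, while its promoter, which is not N-only, was lower in N than in bIP (4.79 against 10.6 CPM, adjusted p = 7.05e-06 by edgeR). CCND1, which encodes cyclin D1 and drives entry into the cell cycle, had 1.15, 1.12 and 2.01 CPM in aRG, 0.859 and 0.890 in bRG, 0.265, 0.712, 0.555, 0.221 and 0.290 in bIP and 2.38, 2.51, 2.64 and 6.01 in N at chr11:53523726-53524731. bIP was the lowest group there, at -1.89 (SE 0.39, adjusted p = 0.000293) against aRG.

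**Figure D3:**
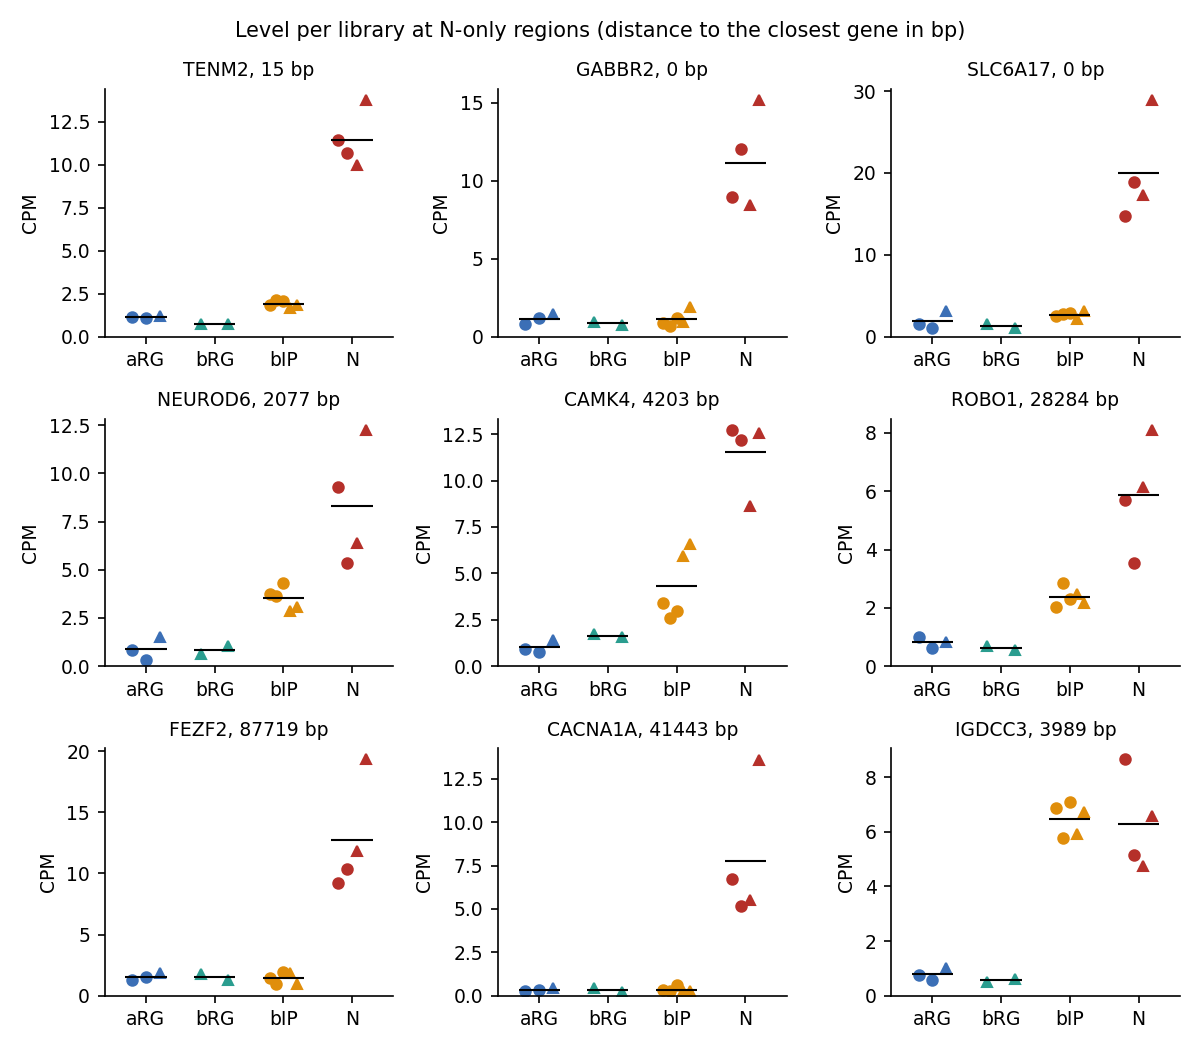
CPM in every library at 9 named N-only regions, 1 panel per gene (circles for the first series, triangles for the second, horizontal lines for group means). CACNA1A and GABBR2 are low in all progenitors, ROBO1, NEUROD6 and CAMK4 have bIP between radial glia and N, and IGDCC3 is as high in bIP as in N.

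Many N-only regions were already more open in bIP than in radial glia, though the share depended on the library series and, against bRG, on the model. Of the 20437 regions, 6536 (32.0%) were higher and 413 (2.02%) lower in bIP than in aRG by edgeR's quasi-likelihood test at a Benjamini-Hochberg adjusted p under 0.05, where 24.0% of all tested regions were higher and 20.9% lower (44.9% called in all). The rule left out peaks of radial glia and of bIP, so the shares of lower and of higher calls both depend on it. The median of the aRG means was 0.746 CPM at N-only regions and 6.25 CPM at regions with an aRG peak, which leaves little room for lower levels in bIP. The median log2 difference was 0.47, against 0.03 over all regions and with 33.9% higher and 15% lower at regions of shared N peaks. Without a filter on low counts the scaling moved the median of all regions to -0.12, and the N-only median relative to it was 0.45 in both settings. Within the first series alone 8364 regions (40.9%) were higher and 356 lower, against 26.6% and 23.3% of all regions. Within the second series alone, which has 1 aRG library, 1681 (8.24%) were higher and 384 (1.88%) lower, against 13.8% and 10.8%, so that the share of higher regions was above the background in the first series and below it in the second. The N-only median lay above that of all regions by 0.60 in the first series and by 0.18 in the second, and the bIP libraries of the second series had the lower medians at these regions. Without aRG replicate 2 the calls fell to 3974 higher and 566 lower (19.4% higher, against 18.2% of all regions), with the median 0.40 above that of all regions.

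Against bRG, whose 2 libraries are both of the second series, 5207 regions (25.5%) were higher and 303 (1.48%) lower in bIP, with 20.4% and 16.1% of all regions as background (36.5% called). This comparison shares its bIP libraries with the one before, so the values stand side by side only. Within the second series alone 4199 (20.6%) were higher and 443 lower, against 19.2% and 15.4% of all regions. Without bRG replicate 1 the total called fell to 2966 (13.9% higher, against 14.1% of all regions) and without bRG replicate 2 to 3251 (15.3% higher, against 14.6%). With a replicate block 80 (0.39%) were higher and 13 (0.06%) lower, against 2.64% and 0.30% of all regions. The N-only median log2 difference was 0.48 in the main model and 0.03 with the block, where that of all regions was -0.01. At 4963 regions (24.3%) every bIP library was above every radial glia library, against 19.4% of all regions. The regions called higher in bIP than in aRG had a median of 1.85 CPM in bIP and 4.33 in N, and those not called had 0.892 and 4.07. Their promoter share was 4.37%, against 4.46% of the uncalled.

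**Figure D4:**
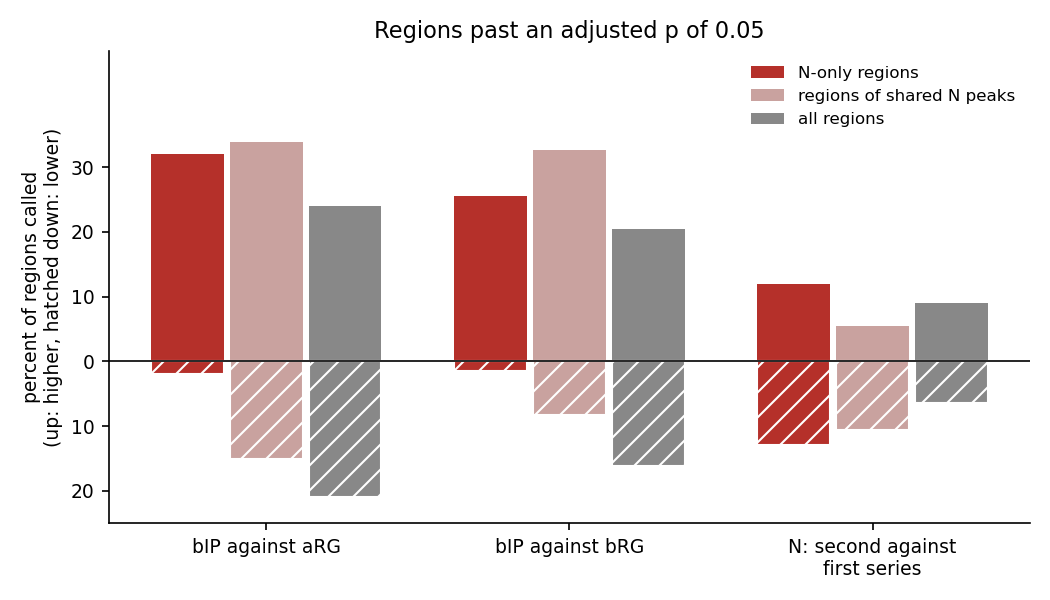
Percent of regions called higher or lower by edgeR (vertical axis, lower drawn downward) for bIP against aRG, bIP against bRG and the second against the first N series, at N-only regions, regions of shared N peaks and all tested regions. In both bIP comparisons the N-only regions have few lower calls, 2.02% and 1.48%, and the rule that left out radial glia peaks limits such calls.

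By list, the calls for bIP against aRG are given beside the 32.0% higher and 2.02% lower of all N-only regions and the 24.0% and 20.9% of all tested regions. They were 14 higher and 0 lower of 25 for ion channels, 13 and 0 of 36 for glutamate and GABA receptors, 15 and 1 of 37 for axon guidance, 10 and 0 of 30 for synaptic adhesion, 9 and 0 of 19 for microtubule and growth cone, 8 and 1 of 17 for synaptic vesicle, 5 and 0 of 10 for RNA-binding proteins and 5 and 0 of 22 for cadherins. Deep-layer transcription factors had 4 higher and 2 lower of 24, and upper-layer factors 4 and 0 of 5. The median log2 difference was 0.79 for ion channels, 0.71 for the receptors, 0.54 for axon guidance and 0.52 for cadherins, beside 0.47 over all N-only regions. The counts are of regions, several of which share a gene, and come from both series together.

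The 5 N-only regions with the smallest p for a higher level in bIP than in aRG, by which they were picked, had bIP means of 5.43 to 9.49 CPM beside N means of 2.51 to 11.2 CPM. IGDCC3, an immunoglobulin-family membrane protein, had 0.751, 0.561 and 1.03 CPM in aRG, 0.506 and 0.609 in bRG, 6.85, 5.76, 7.08, 5.92 and 6.71 in bIP and 8.65, 5.16, 4.76 and 6.57 in N at a region 3989 bp away (chr15:40368764-40369335). The bIP and N ranges overlapped, and both lay clear of radial glia, with 3.03 (SE 0.27, adjusted p = 3.35e-09) for bIP against aRG. This peak lay 1683 bp from the nearest peak of another cell type. IFT122, a component of cilium transport, had 4.81, 4.66, 6.73, 4.69 and 6.28 CPM in bIP and 13.0, 9.65, 7.25 and 14.7 in N, and AL590708.1 had 6.21, 5.50, 6.38, 5.26 and 7.15 and 9.28, 11.1, 5.72 and 10.5. At AL591721.1 bIP was above N, with 6.70, 6.93, 6.52, 3.31 and 7.63 CPM against 3.43, 3.53, 1.15 and 1.92. RN7SKP276 was the other, with means of 9.49 CPM in bIP and 7.42 in N.

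The 5 with the smallest p for a lower level in bIP than in aRG were low in bIP. ENC1, an actin-binding protein of the early nervous system, had 8.77, 8.11 and 8.87 CPM in aRG, 10.9 and 7.26 in bRG, 3.63, 3.24, 3.12, 4.55 and 4.06 in bIP and 3.98, 4.14, 4.13 and 5.58 in N at a region 10410 bp away (chr17:21409593-21410164). The radial glia libraries were all above the N libraries there, although the N peak set alone holds a peak, whose −log10 q of 59.4 is below the N-only median. At ERC2-IT1, an RNA gene within the ERC2 locus, aRG had 3.68, 2.50 and 5.54 CPM, bIP 1.10, 1.17, 1.18, 1.19 and 1.21 and N 5.15, 3.53, 8.02 and 12.8. AC034232.2, AC063960.1 and Z83847.1 fell by 1.84, 1.82 and 1.47 on the log2 scale from aRG to bIP.

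Between the 2 kinds of radial glia no N-only region was called. By edgeR 0 of 20437 were called, with 0 of all 200931 tested regions (0.0%). An unadjusted p under 0.05 was found at 1584 of the 20437 N-only regions and at 8197 of all 200931. The smallest adjusted p among the N-only regions was 0.987, and DESeq2 called 0 of them as well. Both bRG libraries are of the second series, where aRG replicate 3 is the only aRG library. The median CPM of the bRG libraries, 0.708 and 0.750, lay within or beside the aRG range.

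The N libraries of the 2 series differed at many N-only regions, and the balance of directions depended on the setting. By edgeR, 2450 regions (12%) were higher and 2628 (12.9%) lower in N replicates 3 and 4 than in replicates 1 and 2, against 8.95% and 6.5% of all regions (15.4% called). At regions of shared N peaks 5.42% were higher and 10.7% lower. Among N-only peaks at or above the median −log10 q the counts were 1338 higher (20.4%) and 327 lower (4.97%), against the same 8.95% and 6.5%. With at least 10 CPM in 2 libraries they were 743 (28.6%) and 105 (4.05%), against 14.3% and 11.3% of all regions. A replicate block gave 118 (0.58%) and 2117 (10.4%), against 2.78% and 3.82%. The counts also rest on single libraries. Without N replicate 2 they were 573 (2.80%) and 1478 (7.23%), against 2.70% and 2.97% of all regions. Without replicate 3 they were 5830 (28.5%) and 2513 (12.3%), against 13.8% and 9.91%. Without replicate 4 they were 860 (4.21%) and 4642 (22.7%), against 7.64% and 10.1%. The regions higher in the second series had a median of 6.13 CPM in N and lay a median of 29477 bp from the closest gene, and those lower had 2.64 CPM and 21133 bp. Total counts were 24207798 and 14416471 in the first-series N libraries and 16918366 and 23328279 in the second. Whether the series differ in cells or in handling cannot be told apart.

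Named genes lay on both sides. PCDH17, a protocadherin of synapses, had 3.43, 3.33, 5.57 and 15.1 CPM in the N libraries (chr13:37835201-37835652), 1.61 (SE 0.32, adjusted p = 0.000703) for the second against the first series, a call lost without replicate 4 (0.70, adjusted p = 0.0791). RBFOX3 differed by 1.53 (SE 0.31, adjusted p = 0.000671) and SV2B, a synaptic vesicle glycoprotein, by 1.00 (SE 0.26, adjusted p = 0.00791), which became 0.89 (adjusted p = 0.104) without replicate 2. In the other direction GRIA1, an AMPA-type glutamate receptor subunit, had 10.0, 9.92, 3.65 and 6.33 CPM (chr5:132718099-132719639) and differed by -1.0 (SE 0.26, adjusted p = 0.00728), which became -1.0 (adjusted p = 0.0522) without replicate 2. FAM107A, a marker of basal radial glia, had 8.34, 9.65, 1.83 and 1.45 CPM in N and 2.99, 3.24, 2.36, 1.72 and 1.45 in bIP. Its 2 second-series N libraries lay within the bIP range, and N and bIP differed by 0.04 in the second series alone (adjusted p = 0.945).

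The 4 regions with the smallest p for a lower second series were nearly shut in it. At Z98747.1 (chr1:1526144-1528002) the libraries had 4.98, 5.30 and 0.539 CPM in aRG, 0.708 and 0.515 in bRG, 10.3, 9.77, 9.78, 1.02 and 0.580 in bIP and 9.71, 12.4, 0.673 and 0.375 in N. Each group with libraries in both series was high in the first and under 1.1 CPM in the second, and at AL805961.1 on the same chromosome N and bIP did likewise, with 9.95, 9.51, 7.28, 0.619 and 0.628 CPM in bIP and 8.26, 9.58, 0.624 and 0.328 in N, while aRG had 1.30, 0.936 and 0.196. AC016816.1 had 5.69, 4.01, 0.0480 and 0.0469 CPM in N, where the second-series counts of 1 and 1 are below the 3 counts taken as the floor. The 4 with the smallest p for a higher second series, listed for AC025280.3, AC026736.1, EEF1A1P26 and AC024610.1, had 2.34 to 3.86 CPM in the first-series N libraries and 9.94 to 24.1 in the second.

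Neighbouring N-only regions near the end of chromosome 10 shared this split. TCERG1L, named for its likeness to a transcription elongation regulator, was the closest gene of 9 N-only regions (chr10:126522480-126758052). Their summed level was 53.9, 53.5, 6.05 and 7.27 CPM in the N libraries and 30.3, 28.4, 25.3, 4.91 and 4.40 in bIP. Both groups were high in every first-series library and low in every second-series one. The named region, 134213 bp from the gene, had 0.237, 0.998 and 0.441 CPM in aRG, 0.152 and 0.281 in bRG, 7.49, 6.99, 8.67, 0.354 and 0.386 in bIP and 14.7, 15.6, 0.624 and 0.798 in N. For bIP against aRG it gave 3.02 (SE 0.50, adjusted p = 1.83e-05) over both series and -0.25 (adjusted p = 0.873) in the second alone. MIR378C, a microRNA gene, was closest to 13 N-only regions of 20 (chr10:126061013-126340748), and all 13 were called lower in the second N series. Among all tested regions 6.5% were called lower there, and among N-only regions 12.9%.

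**Figure D5:**
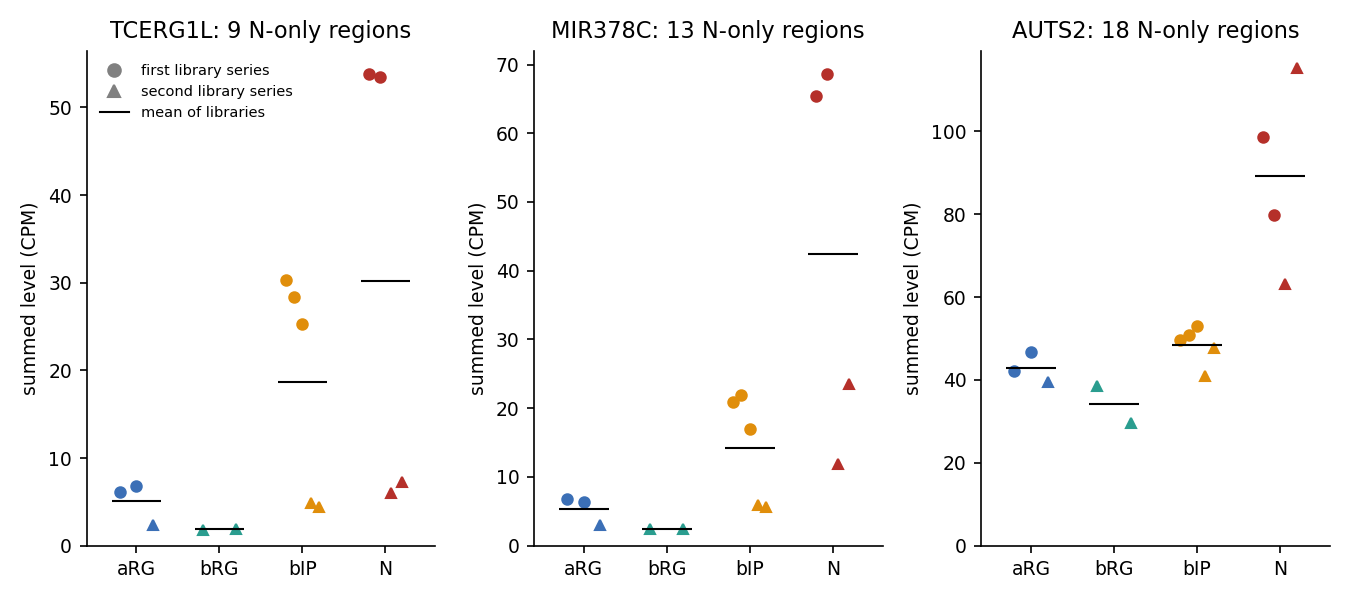
Summed CPM per library over the N-only regions listed for TCERG1L (9 regions), MIR378C (13) and AUTS2 (18), with circles for the first and triangles for the second series. At TCERG1L the first-series N libraries are at 53.9 and 53.5 CPM and the second-series ones at 6.05 and 7.27.

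AUTS2, a regulator of transcription and of the neuronal cytoskeleton, was the closest gene of the most N-only regions, 18 of its 127 (chr7:64056118-64641127). The one with the smallest p for N against bIP (chr7:64394304-64395302, 343957 bp away) had 19.1, 13.0, 4.80 and 14.6 CPM in N and 2.04, 1.68, 1.80, 1.15 and 0.725 in bIP, with N replicate 3 the lowest N library. NPM1P37 followed with 15, MIR378C with 13, and AC015522.1 and RNU6-429P with 11 each, all but AUTS2 being non-coding or pseudogene names. Among protein-coding genes SEMA3A had 10, and ADGRB3, BCHE, PBOV1, TCERG1L and USP6NL had 9 each. Along the table, 26.8% of N-only regions stood in a run of at least 2 with no other region between them. Of these runs 22 held 5 or more regions, and the longest held 7. Off chromosomes 2A and 2B, 10.9% of the regions with a closest gene were N-only, so some runs arise by order alone. The share expected from a random order was not worked out, and clustering was not tested. Both runs of 7 lay on chromosome 11. The one near olfactory receptor genes (chr11:40206385-40415867) had a summed level of 45.4, 32.3, 33.1 and 51.4 CPM in the N libraries and 2.46 to 7.60 CPM in bIP. The other, near the RNA genes AP001825.2 and AP001825.3 (chr11:66692288-66715606), had 43.2, 30.5, 48.5 and 84.0 CPM in N and 6.73 to 9.23 in bIP.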

How the data were processed

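Bulk ATAC-seq of 14 sorted libraries was read from the deposited files. Per the file headers, the count table gives whole-number counts per region and library as the authors made them, not normalized, with the region's place in gorGor6, its closest gene and the distance to it. Each cell type has 1 peak set by the authors, a consensus over its libraries, in narrowPeak layout per the file headers, with a deposited score, fold enrichment (ratio) and −log10 q-value per peak. Every peak had a −log10 q of at least 3.57. The submitters' processing notes name MACS2, bcl2fastq 2.20.0 and the builds hg38 and panTro6. Not given in the sources used here are the aligner, the read counter, any shift of reads to the cut site and how consensus sets were made. The peak sets name no build and were taken as gorGor6, since 16758 N peak starts equal a start in the table. Coordinates are gorGor6, counted from 1. Sequences, exons and introns were not analysed here.

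The members and gene lists were chosen with earlier results of these data known. From the table, 13823 regions with no gorilla position and 0 counts and 8 repeats were left out. Counts of the other 204249 were tested with edgeR 4.0.16 (R 4.3.3, limma 3.58.1): TMM scaling, filterByExpr, quasi-likelihood tests over all 14 libraries with terms for cell type and library series, and Benjamini-Hochberg adjustment over the 200931 regions left, all 20437 members included. The contrast of N series used a mean per cell type and series. The test was checked on simulated counts. DESeq2 1.42.0, other filters, other overlap rules, single series, a replicate block and leaving out each library were alternatives. Closest gene names of protein-coding genes (12952) were matched to RefSeq symbols. The 24 names listed on several chromosomes were left out of the ranking of genes by members. They were also left out of the picks by p for bIP against aRG and for the N series, but not of the shares of genes. Columns of samples outside the study numbered 0. Named regions were those with the smallest p for N against bIP (12 promoters, 12 distal), those of the 10 genes with the most members, up to 4 genes per list, and those with the smallest p for bIP against aRG (5 per direction) and for the N series (4 per direction). One region chosen by this rule is not reported here. Runs of members and genes singled out of these were chosen after their values were seen.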

Additional observations from a re-analysis of the deposited data

Results flagged for a closer look

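Groups of 4 or 5 libraries were checked at the named regions, and for the median CPM and the share of counts at N-only regions. Of 156 groups, 12 had 1 library whose gap to the nearest exceeded Dixon's 95% critical value for a group of that size. Chance flags about 1 in 20 groups. In 7 of the 12 it was N replicate 4, above the other N libraries: 33.2 CPM at INSYN2A (others 20.1 to 20.7), 36.5 at SLC24A4 (18.0 to 21.0), 22.9 at LIN7A (13.7 to 14.9), 16.7 at NEO1 (10.6 to 11.5), 5.68 at FOXP2 (2.51 to 2.88), 6.01 at CCND1 (2.38 to 2.64) and 5.58 at ENC1 (3.98 to 4.14). N replicate 3 was the low library at FANCA, with 7.64 CPM (others 13.3 to 14.1), and at CAMK4, with 8.65 CPM (12.2 to 12.7). Among the bIP libraries, replicate 3 was high at CACNA1A with 0.624 CPM (others 0.259 to 0.303), replicate 4 was low at AL591721.1 with 3.31 CPM (6.52 to 7.63), and replicate 5 was high at RN7SKP276 with 15.2 CPM (7.95 to 8.22). At FANCA, CAMK4 and the 7 regions where N replicate 4 stood apart, every N library was still above the bIP mean.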

How the results depend on the processing

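The counts of called N-only regions fell where fewer regions were kept, and the shares called changed as well. In the N series the balance of directions also changed, as given above. With only the 6701 N-only peaks at or above the median −log10 q, they were 2139 for bIP against aRG, 2197 for bIP against bRG, 1665 for the N series, and 6517, 6554 and 6544 for N against bIP, aRG and bRG, with 4.15% at promoters. The tests were those of the main model, which called 44.9%, 36.5%, 15.4%, 55.2%, 66.4% and 58.1% of all tested regions in this order. With at least 10 CPM in 2 libraries the counts were 999, 913, 848, 2528, 2564 and 2549 of 2595 regions kept. Of all regions kept, 70.1%, 59.0%, 25.6%, 68.1%, 77.0% and 72.7% were called in the same order. Linking peaks by 50% of their length, or leaving out regions that touch another peak, moved no total by over 1.5 times, but the second took the lower calls in N from 60 to 18 against aRG and from 51 to 19 against bRG. A promoter limit of 2000 bp gave 7.06%. DESeq2's test called 2776 regions between the N series, against 5078 by edgeR, and of all regions 9.12% and 15.4%. For bIP against aRG the second series alone gave 2065. The first series alone, and summing the close pairs (aRG replicates 1 and 2, bIP replicates 1 and 2, whose counts differed little beyond sampling noise), were chosen after seeing the data, and the second gave 4507 (19.6% higher, against 17.9% of all regions). On leaving out 1 library at a time, totals ran from 4540 to 7105 for bIP against aRG, 2966 to 5831 for bIP against bRG and 2051 to 8343 for the N series. At the ends for bIP against aRG 39.4% and 46.2% of all regions were called, and at the upper end for bIP against bRG 41.8%. Of 16 same-numbered pairs 1 had a correlation over 0.1 after the model was fitted. With so few libraries per group this cannot settle whether replicate numbers pair samples. With a replicate block the counts were 4361 for bIP against aRG, 93 for bIP against bRG, 9086 for N against bRG and 2235 for the N series. Of all regions 34.5%, 2.94%, 22.3% and 6.59% were called in the same order. PCDH17 turned to -0.18 for the N series under the replicate block, CNTNAP2 and TCERG1L to -0.26 and -0.25 for bIP against aRG in the second series alone, and Z83847.1 to 0.17 for bIP against bRG without the series term. The causes were not tested. Of 76 regions chosen by the naming rule, 30 were called for bIP against aRG and 15 of these lost the call under at least 1 alternative; the numbers were 31 and 27 against bRG, 20 and 9 for the N series and 70 and 3 for N against bIP. At 1 CPM a library of 12834983 counts holds few reads per region, so steps between low progenitor levels are the least precise.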
